A study of Mus musculus with 9 samples.

Results

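A set of 9 genes of the cellular response to low oxygen were followed in kidneys of mice lacking Pkd2 alone or Pkd2 together with Ift88. They were chosen by name as Hif1a, Epas1, Egln1, Egln3, Vegfa, Adm, Bnip3, Ndrg1 and Kdm3a, and are 9 of the 22161 genes in the deposited table. All 9 passed the filter on low values (a mean of at least 10 normalized counts over the 9 libraries), as did 15740 genes in all.

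Hypoxia-inducible factors (HIFs) are transcription factors made of an oxygen-regulated alpha subunit and the stable partner ARNT. In the presence of oxygen, prolyl hydroxylases of the EGLN family mark the alpha subunit for ubiquitination by the von Hippel-Lindau protein and for degradation, and when oxygen is scarce the subunit accumulates and turns on genes of blood vessel growth, glycolysis and mitochondrial turnover. Much of this control acts on the HIF protein, which RNA sequencing does not measure. In the kidney, tubule cells mainly make HIF-1 alpha, whereas endothelial and interstitial cells mainly make HIF-2 alpha, the product of Epas1.

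The series sequenced poly(A) RNA from whole kidneys of 9 C57BL/6 mice at 10 weeks (postnatal day 70), 3 in each of 3 groups. Double knockout (DKO) mice were Ift88fl/fl;Pkd2fl/fl;Pax8rtTA;TetO-cre, Pkd2 knockout (KO) mice were Pkd2fl/fl;Pax8rtTA;TetO-cre, and wild type (WT) mice are labelled only as such, with no mention of a driver or floxed allele. Every group, wild type included, was given 2 mg/ml of doxycycline by mouth over 2 weeks, beginning on day 28 after birth. Doxycycline switches on cre through Pax8-rtTA, which is active in kidney tubules, so other kidney cells keep the genes. Pkd2 encodes the cation channel polycystin-2, mutated in polycystic kidney disease, and Ift88 a transport protein needed to build cilia. A number after DKO, KO or WT denotes 1 mouse.

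The depth was similar across libraries, with normalized totals of 40454151 to 42874467 each, equal to 37056843 to 47314829 recovered reads. Pkd2 averaged 4687 ± 789, 5118 ± 414 and 14095 ± 375 normalized counts in DKO, KO and WT kidneys, and Ift88 averaged 752 ± 71.4, 1140 ± 66.0 and 1085 ± 41.0 (SD, n = 3 each). Summed markers of the proximal tubule, which identify kidney cortex, were 558506 to 611298 in DKO, 570147 to 573869 in KO and 542036 to 592969 in WT kidneys. The 6 thick ascending limb markers summed to 215406 to 287518 in DKO, 163675 to 202789 in KO and 350585 to 370384 in WT kidneys, none of them was at 0 in any library, and 4 of 6 fell in KO against WT. Leaving out 1 library left 1 to 4 of these calls, 1 without WT 2 (Egf) and 2 without KO 1 (Egf and Slc12a1). KO 3 stood apart from the other libraries in its 5 erythroid markers, which summed to 6174, against 295.3 and 859 in the other KO mice, 87.2 to 388.7 in DKO and 324.5 to 1012 in WT mice. The prefix of the mouse names differs between genotypes, and within KO and WT it also sets replicate 3 apart from replicates 1 and 2. In DKO the name of replicate 3 differs from those of replicates 1 and 2 by a hyphen. Prefix and genotype cannot be told apart. In whole kidneys, fewer cells of a type and less RNA per cell cannot be told apart.

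HIF binds DNA at the letters ACGTG or GCGTG, the core of the hypoxia response element. Promoter windows from RefSeq (GRCm38.p6), covering 250 bases before to 50 bases after each annotated start, were available for 7 of the 9 genes, in 10 windows; Epas1 and Ndrg1 had none. Both motifs were searched on both strands, and a palindromic CACGTG counts once on each strand. Each of the 7 genes had a match in at least 1 window, but Kdm3a and Vegfa had more than 1 window and not every one held a match. No share over all genes is given to set beside that count. By window, at least 1 match was found in 7 of the 10, whereas 43.8% of all 32851 windows held at least 1, 20.6% at least 2 and 8.93% at least 3. These windows are also richer in G and C than most (Bnip3 71.7%, Hif1a 69.3% and Egln3 54.7%, with Egln1 higher than any of these, against a median over all windows of 52.7%), so their matches are a description only. Bnip3 held 5 matches, the most of the 7 genes searched, and Hif1a held 3, Egln1 2 and Egln3 1, while the Vegfa window with matches (2) lies at a start inside the gene and its other window had none. The 250 bases before the start are shown for Bnip3 and Hif1a, which had the most matches, and for the hydroxylases Egln1 and Egln3, each 5′ to 3′ on the strand of the gene with the motif letters in capitals. The stretches are chr7:138909507-138909756 (minus strand) for Bnip3, chr12:73907617-73907866 (plus strand) for Hif1a, chr8:124949255-124949504 (minus strand) for Egln1 and chr12:54203875-54204124 (minus strand) for Egln3.
Bnip3: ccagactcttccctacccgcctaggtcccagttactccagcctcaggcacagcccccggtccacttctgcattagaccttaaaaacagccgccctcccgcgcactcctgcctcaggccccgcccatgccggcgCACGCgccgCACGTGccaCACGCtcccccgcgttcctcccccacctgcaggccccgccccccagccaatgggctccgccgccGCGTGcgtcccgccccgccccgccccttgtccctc
Hif1a: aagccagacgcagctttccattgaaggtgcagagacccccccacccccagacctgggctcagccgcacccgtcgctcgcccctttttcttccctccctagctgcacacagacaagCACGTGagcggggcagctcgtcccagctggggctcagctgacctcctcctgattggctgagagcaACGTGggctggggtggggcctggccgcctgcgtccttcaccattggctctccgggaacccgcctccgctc
Egln1: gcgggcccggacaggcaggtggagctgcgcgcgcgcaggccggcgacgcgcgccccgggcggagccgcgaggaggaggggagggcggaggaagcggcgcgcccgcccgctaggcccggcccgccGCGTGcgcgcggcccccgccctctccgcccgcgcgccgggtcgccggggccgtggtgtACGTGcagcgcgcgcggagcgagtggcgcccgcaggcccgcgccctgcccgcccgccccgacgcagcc
Egln3: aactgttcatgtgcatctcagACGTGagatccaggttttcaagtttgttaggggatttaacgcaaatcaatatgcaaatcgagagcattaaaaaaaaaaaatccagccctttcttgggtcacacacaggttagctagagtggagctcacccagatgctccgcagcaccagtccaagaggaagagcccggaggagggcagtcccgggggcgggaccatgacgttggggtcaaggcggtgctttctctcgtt

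None of the 9 genes passed the test in any comparison. Each comparison used limma on log2(normalized count + 1) with all 3 groups in a single fit, and the threshold for a call was 0.05 on the p adjusted by Benjamini-Hochberg over all 15740 tested genes. In KO against WT, limma called 0 of 9 (2.40% of all tested genes were called), 2 of 9, Egln3 and Vegfa, were lower at an unadjusted p below 0.05 (18.0% of tested genes passed that rule, 9.36% higher and 8.67% lower), and edgeR and DESeq2 on the recovered reads each called 0. In DKO against KO, limma called 0 of 9 (0.394% of tested genes), and Ndrg1 alone was higher at an unadjusted p below 0.05 (10.7%, with 4.19% higher and 6.49% lower). There edgeR called 0 of 9, and DESeq2 called Ndrg1, beside 472 of all 15740 tested genes. In DKO against WT, limma called 0 of 9 (0.229% of tested genes), Egln3 alone was lower at an unadjusted p below 0.05 (11.7%, with 5.93% higher and 5.81% lower), and edgeR and DESeq2 each called 0.

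In 2 of these comparisons the 9 genes all lay on one side of 0. All 9 log2 fold changes of KO over WT were below 0, as were 49.2% of tested genes, with a median of -0.19 beside 0.004 over all genes. All 9 log2 fold changes of DKO over KO were above 0, as were 51.3% of tested genes, with a median of 0.13 beside 0.005 over all genes. In DKO over WT, 3 were above and 6 below 0 (50.2% of tested genes were below), with a median of -0.07 beside -0.001. The comparisons share libraries: each group stands in 2 of the 3, so these directions are not independent of each other. Nor are the genes, with r = 0.907 between Hif1a and Bnip3 over the 9 libraries. Over left-out libraries, Adm (-0.335 to 0.055) and Kdm3a (-0.219 to 0.009) crossed 0 in KO over WT. In DKO over KO, Adm (-0.153 to 0.310), Egln3 (-0.110 to 0.279) and Hif1a (-0.019 to 0.090) did so. KO and WT mice did not overlap for 3 of 9 genes (Hif1a, Vegfa and Bnip3, all lower in KO), beside 12.8% of tested genes that were lower without overlap. DKO and KO mice did not overlap for Egln1, higher in DKO (7.40% of tested genes), and DKO and WT mice did not overlap for Egln3, lower in DKO (9.24%).

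**Figure D1:**
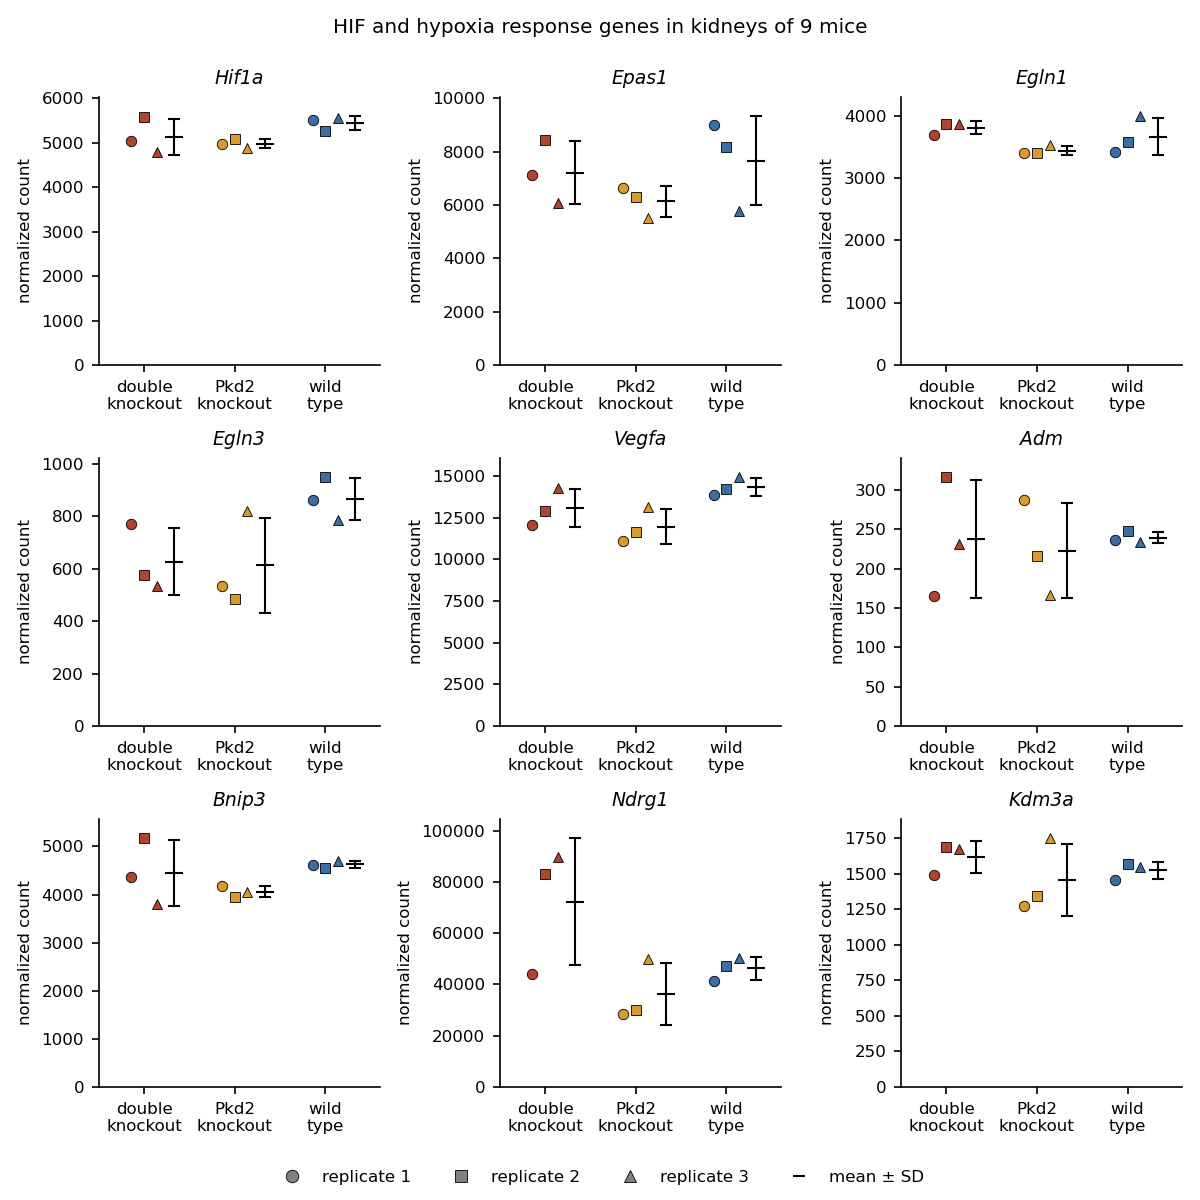
Normalized count of each of the 9 genes (vertical axis, from 0) in double knockout, Pkd2 knockout and wild type kidneys. Each point is 1 mouse, its shape the replicate number, with the mean ± SD beside it (n = 3). Ndrg1 spans 43914 to 89622 in double knockout mice, and Egln3 is lower in all 3 double knockout mice than in any wild type mouse.

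Levels between genes were compared per kilobase of exon, with exon lengths taken from GENCODE M21, not necessarily the annotation the authors counted with. Ndrg1 had by far the highest mean per kilobase, at 10952 in DKO, 5489 in KO and 7012 in WT kidneys, followed by Vegfa at 3053, 2790 and 3347. Bnip3 came next at 1961, 1790 and 2042, ahead of Epas1 at 1291, 1100 and 1370. Egln1 (1059, 958 and 1020 in the same order of groups) and Hif1a (870, 844 and 922) lay close together. Egln3 (235, 230 and 325), Kdm3a (197, 177 and 185) and Adm (147, 138 and 148) were the lowest, and the order of the 9 genes was the same in all 3 groups. In that annotation exons of Hif1a overlap Gm15283 on the opposite strand and Gm49321 on the same strand, those of Bnip3 overlap Gm45507 on the opposite strand, and those of Ndrg1 overlap Gm17035 and Gm2895 on the opposite strand. Whether the authors' counting used strand is not given in the sources used here, so reads of these pairs cannot be told apart.

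Hif1a, which encodes the oxygen-regulated subunit of HIF-1, varied little. It had 5039, 5567 and 4786 normalized counts in DKO 1, 2 and 3, 4973, 5076 and 4875 in KO 1, 2 and 3, and 5500, 5256 and 5548 in WT 1, 2 and 3. All 3 KO mice lay below all 3 WT mice, and the DKO mice spanned both groups. Its log2 fold change was -0.13 in KO over WT (95% interval -0.28 to 0.03, adjusted p = 0.360 by limma), 0.04 in DKO over KO (-0.11 to 0.20, adjusted p = 0.910) and -0.09 in DKO over WT (-0.24 to 0.07, adjusted p = 0.673). No bound of these 3 intervals lay farther from 0 than -0.28.

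Epas1, which encodes the HIF-2 alpha subunit and is the main driver of erythropoietin in the kidney, was more variable. It had 7139, 8429 and 6082 normalized counts in DKO mice, 6647, 6294 and 5504 in KO mice and 9011, 8175 and 5796 in WT mice, in replicate order. The lowest mouse of each group was its replicate 3, and the groups overlapped. On the log2 scale it was -0.30 in KO over WT (-0.68 to 0.09, adjusted p = 0.396 by limma), 0.22 in DKO over KO (-0.16 to 0.61, adjusted p = 0.754) and -0.07 in DKO over WT (-0.46 to 0.31, adjusted p = 0.906). Leaving out 1 library moved KO over WT to between -0.17 (without WT 1) and -0.49 (without WT 3), and DKO over KO to between 0.11 (without DKO 2) and 0.34 (without DKO 3), with no call. Array quality weights gave -0.40 and an adjusted p of 0.0328 in KO over WT, where they called 3222 of all 15740 tested genes. Erythropoietin itself (Epo) was listed at 0 to 8.16 normalized counts per mouse and fell below the filter. The other subunits did not pass either. Hif3a, the remaining alpha subunit, averaged 181 ± 177 in DKO, 146 ± 59.3 in KO and 115 ± 68.4 in WT kidneys, and Arnt, the shared partner, averaged 2445 ± 28.5, 2429 ± 91.2 and 2508 ± 58.6 (SD, n = 3 each).

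Egln1 encodes PHD2, the principal oxygen sensor among the hydroxylases and itself a HIF target. It had 3689, 3869 and 3864 normalized counts in DKO mice, 3396, 3405 and 3527 in KO mice and 3425, 3581 and 3991 in WT mice. Every DKO mouse lay above every KO mouse, and the WT mice overlapped both groups. For DKO over KO the log2 fold change was 0.15 (-0.01 to 0.30, adjusted p = 0.515 by limma), with -0.09 in KO over WT (-0.24 to 0.07, adjusted p = 0.538) and 0.06 in DKO over WT (-0.10 to 0.21, adjusted p = 0.795). Its paralog Egln2, a hydroxylase that is not known for induction by hypoxia, averaged 2236 ± 104 in DKO, 2201 ± 145 in KO and 2256 ± 88.7 in WT kidneys (SD, n = 3 each) and did not pass in any comparison.

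Egln3 encodes PHD3, a hydroxylase whose RNA is strongly induced by HIF. It had 771, 575 and 532 normalized counts in DKO mice, 535, 484 and 819 in KO mice and 861, 948 and 787 in WT mice. DKO mice lay below all WT mice, and of the KO mice only KO 3 reached the WT range. Means were 626 ± 128 in DKO, 613 ± 180 in KO and 865 ± 80.4 in WT kidneys (SD, n = 3 each). On the log2 scale the difference was -0.53 ± 0.21 in KO over WT (SE, 95% interval -0.99 to -0.07, adjusted p = 0.218 by limma) and -0.48 in DKO over WT (-0.94 to -0.02, adjusted p = 0.405), so both intervals lay below 0 while neither difference passed the correction over all genes. DKO over KO was 0.05 (-0.41 to 0.51, adjusted p = 0.967). Without KO 3, the library with the high erythroid sum, KO over WT was -0.76 with an adjusted p of 0.0529 by limma. It was -0.454 (adjusted p = 0.468) without KO 1 and -0.381 (adjusted p = 0.484) without KO 2. Array quality weights, which let libraries count unequally, gave an adjusted p of 0.00776 in that comparison, where they called 3222 of all 15740 tested genes.

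**Figure D2:**
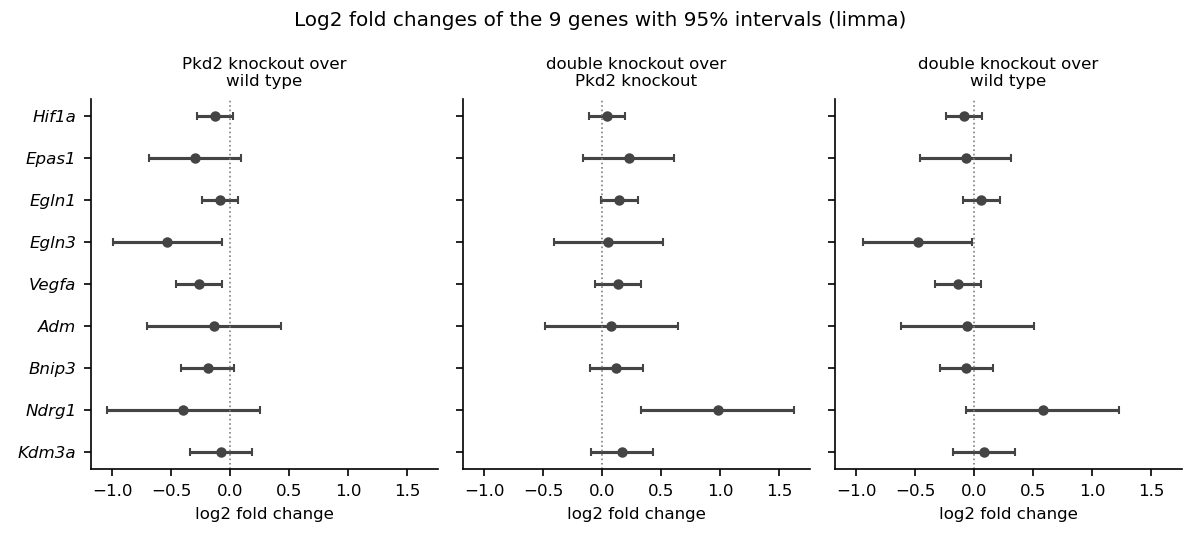
Log2 fold change (horizontal axis) of each gene with its 95% interval from limma, for Pkd2 knockout over wild type, double knockout over Pkd2 knockout and double knockout over wild type. Points lie left of 0 in the first panel and right of 0 in the second, and the intervals that exclude 0 are those of Egln3 and Vegfa in the first, Ndrg1 in the second and Egln3 in the third panel.

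Vegfa encodes the secreted growth factor that drives blood vessel growth and that podocytes and tubule cells supply to the kidney's capillaries. It had 12052, 12910 and 14279 normalized counts in DKO mice, 11101, 11634 and 13127 in KO mice and 13856, 14252 and 14920 in WT mice. KO mice lay below all WT mice, the nearest being KO 3 and WT 1, whereas DKO 3 fell inside the WT range. For KO over WT the log2 fold change was -0.27 ± 0.09 (SE, 95% interval -0.46 to -0.07, adjusted p = 0.151 by limma). Without KO 3 it was -0.335 (adjusted p = 0.0785), and without KO 1 it was -0.214 (adjusted p = 0.402). DKO over KO was 0.13 (-0.07 to 0.33, adjusted p = 0.692) and DKO over WT -0.14 (-0.33 to 0.06, adjusted p = 0.588). With array quality weights the adjusted p in KO over WT was 0.0105, and those weights called 3222 of all 15740 tested genes there. The 5 podocyte markers, none of which passed in KO against WT, summed to 14517 to 15861 in DKO, 13084 to 13911 in KO and 15332 to 15700 in WT kidneys, and the thick ascending limb sum given above was also lowest in KO; their part in the Vegfa values was not tested.

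The receptors of Vegfa did not pass in any comparison. Kdr, the main signalling receptor of endothelium, averaged 3326 ± 187 in DKO, 3270 ± 199 in KO and 3626 ± 168 in WT kidneys, and Flt1, a decoy receptor, averaged 3891 ± 400, 3389 ± 691 and 3848 ± 204 (SD, n = 3 each). The 8 endothelial markers summed to 16553 to 18625 in DKO, 17166 to 19398 in KO and 18078 to 19602 in WT kidneys. Of the 13 genes for VEGF and angiopoietin ligands and receptors other than Vegfa, limma, and edgeR likewise, called 0 in KO against WT (377 each of all 15740 tested genes). At an unadjusted p below 0.05, 1 was higher and 3 lower, beside 9.36% and 8.67% of all tested genes. Beside 1172 of all 15740 tested genes, DESeq2 called Nrp1 of these 13. Nrp1, a VEGF co-receptor and the most abundant of them, averaged 5328 ± 319 in DKO, 4951 ± 487 in KO and 6387 ± 274 in WT kidneys, with a log2 fold change of -0.37 in KO over WT (-0.56 to -0.18, adjusted p = 0.0561 by limma). Their median log2 fold change was -0.15 in KO over WT, 0.01 in DKO over KO and -0.12 in DKO over WT.

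Adm encodes adrenomedullin, a peptide that widens blood vessels and is induced by hypoxia in many tissues. It was the lowest of the 9 genes, with 166, 316 and 231 normalized counts in DKO mice, 287, 216 and 167 in KO mice and 237, 248 and 234 in WT mice. The WT mice lay close together and inside the range of both mutant groups. Its log2 fold change was -0.14 in KO over WT (-0.70 to 0.43, adjusted p = 0.818 by limma), 0.08 in DKO over KO (-0.49 to 0.64, adjusted p = 0.960) and -0.06 in DKO over WT (-0.63 to 0.50, adjusted p = 0.950). These intervals are the second widest of the 9 genes. Its receptor Calcrl averaged 773 ± 84.9 in DKO, 809 ± 125 in KO and 819 ± 42.1 in WT kidneys, and the receptor partner Ramp2 averaged 368 ± 28.5, 381 ± 32.1 and 357 ± 31.6 (SD, n = 3 each). Of the 7 other genes for ligands and receptors of the adrenomedullin family, limma, edgeR and DESeq2 each called 0 in KO against WT. Over all 15740 tested genes these methods called 377, 377 and 1172. At an unadjusted p below 0.05, 0 of the 7 genes passed, beside 18.0% of all tested genes. The most abundant was Pam, the amidating enzyme, with 8712 ± 481 in DKO, 8433 ± 161 in KO and 9382 ± 623 in WT kidneys.

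Bnip3 encodes a mitochondrial outer membrane protein that recruits the autophagy machinery to mitochondria, and it is a classical HIF-1 target. It had 4362, 5167 and 3795 normalized counts in DKO mice, 4174, 3947 and 4042 in KO mice and 4624, 4558 and 4692 in WT mice. KO and WT mice each lay within a narrow range and did not overlap, with KO lower, whereas DKO 3 lay below, DKO 1 between and DKO 2 above those ranges. The log2 fold change was -0.19 ± 0.10 in KO over WT (SE, 95% interval -0.42 to 0.04, adjusted p = 0.353 by limma), 0.12 in DKO over KO (-0.11 to 0.35, adjusted p = 0.773) and -0.07 in DKO over WT (-0.30 to 0.16, adjusted p = 0.837). Its paralog Bnip3l, or NIX, averaged 3463 ± 100 in DKO, 3605 ± 193 in KO and 3644 ± 34.1 in WT kidneys and did not pass. Across the 13 other mitophagy receptors and adaptors, limma, edgeR and DESeq2 each called 0 in KO against WT (377, 377 and 1172 of all 15740 tested genes). Beside 9.36% and 8.67% of all tested genes, 1 of the 13 was higher (Bcl2l13) and 1 lower (Map1lc3a) at an unadjusted p below 0.05. Gabarapl1, a protein of the autophagosome membrane and the most abundant of these genes, averaged 30862 ± 4813 in DKO, 23767 ± 3227 in KO and 23661 ± 4754 in WT kidneys, with a log2 fold change of 0.37 in DKO over KO (0.01 to 0.74, adjusted p = 0.452).

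Ndrg1, a cytoplasmic protein gene induced by hypoxia and by differentiation, differed most between DKO and KO. It had 43914, 83177 and 89622 normalized counts in DKO 1, 2 and 3, 28311, 30209 and 50106 in KO 1, 2 and 3, and 41486, 47038 and 50230 in WT 1, 2 and 3. DKO 2 and DKO 3 lay far above every other mouse, DKO 1 lay within the WT range, and KO 3 lay within the WT range while KO 1 and KO 2 lay below it. Means were 72237 ± 24740 in DKO, 36209 ± 12073 in KO and 46251 ± 4425 in WT kidneys (SD, n = 3 each). The log2 fold change of DKO over KO was 0.98 ± 0.29 (SE, 95% interval 0.33 to 1.63, adjusted p = 0.227 by limma), which ranked 519 by p in that comparison. DESeq2 called it on the recovered reads (log2 fold change 0.99, adjusted p = 0.0141), edgeR did not (0.99, adjusted p = 0.207), and array quality weights called it (1.13, adjusted p = 0.0379). On 7 libraries, without KO 1 and WT 1 together, DESeq2 did not call it (0.84, adjusted p = 0.212). On all 9 libraries, DESeq2 called 472 and array quality weights 614 of all 15740 tested genes in this comparison.

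The size of that difference changed with single libraries, and it was larger without DKO 1 or without KO 3. Without DKO 1 the log2 fold change was 1.30 (adjusted p = 0.106 by limma) and without KO 3 it was 1.24 (adjusted p = 0.0765), and over all 9 ways of leaving out 1 library it lay between 0.79 and 1.30 with no call. Ndrg1 was 0.58 in DKO over WT (-0.07 to 1.23, adjusted p = 0.478) and -0.40 in KO over WT (-1.05 to 0.25, adjusted p = 0.498). The 3 genes whose log2 values followed Ndrg1 most closely over the 9 libraries, among 12195 genes that are not members, have a mean of at least 50 and bear no clone or pseudogene name, were Sult1d1 (r = 0.983), Dcaf11 (r = 0.924) and Pigg (r = 0.914). The libraries share their genotype groups and scaling, so these values are a description. Sult1d1, a sulfotransferase gene, had 39106, 46874 and 48548 normalized counts in DKO mice, 33479, 33744 and 38570 in KO mice and 39398, 39740 and 41217 in WT mice, so DKO 1 and KO 3 were again the mice nearest to WT. Its log2 fold change of DKO over KO was 0.34 with an adjusted p of 0.215. The thick ascending limb markers summed to 227450, 287518 and 215406 in DKO 1, 2 and 3 and to 199487, 202789 and 163675 in KO 1, 2 and 3. Their part in the Ndrg1 values was not tested.

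Its paralog Ndrg2, which is also a differentiation-linked member of the family, fell in both mutant groups and is the sole gene of the 4-gene family that passed. Ndrg2 had 2795, 2347 and 2234 normalized counts in DKO mice, 2284, 2296 and 2596 in KO mice and 5503, 5598 and 4615 in WT mice, and every mutant mouse lay below every WT mouse. On the log2 scale it differed by -1.13 ± 0.11 in KO over WT (SE, adjusted p = 0.00242 by limma) and -1.09 ± 0.11 in DKO over WT (adjusted p = 0.00386), and both calls were kept when each library in turn was left out. On 7 libraries, without KO 1 and WT 1 together, limma's adjusted p was 0.0737 in KO over WT and 0.0758 in DKO over WT, and edgeR's was 0.0844 and 0.0847, while DESeq2 kept both calls. Between DKO and KO it was 0.04 (-0.21 to 0.28, adjusted p = 0.958). Ndrg3 averaged 3583 ± 119 in DKO, 3224 ± 115 in KO and 3493 ± 88.7 in WT kidneys, Ndrg4 averaged 190 ± 54.0, 161 ± 24.2 and 223 ± 35.0 (SD, n = 3 each), and neither passed. The summed thick ascending limb markers were also lower in every mutant mouse than in any WT mouse, and their part in the Ndrg2 values was not tested.

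**Figure D3:**
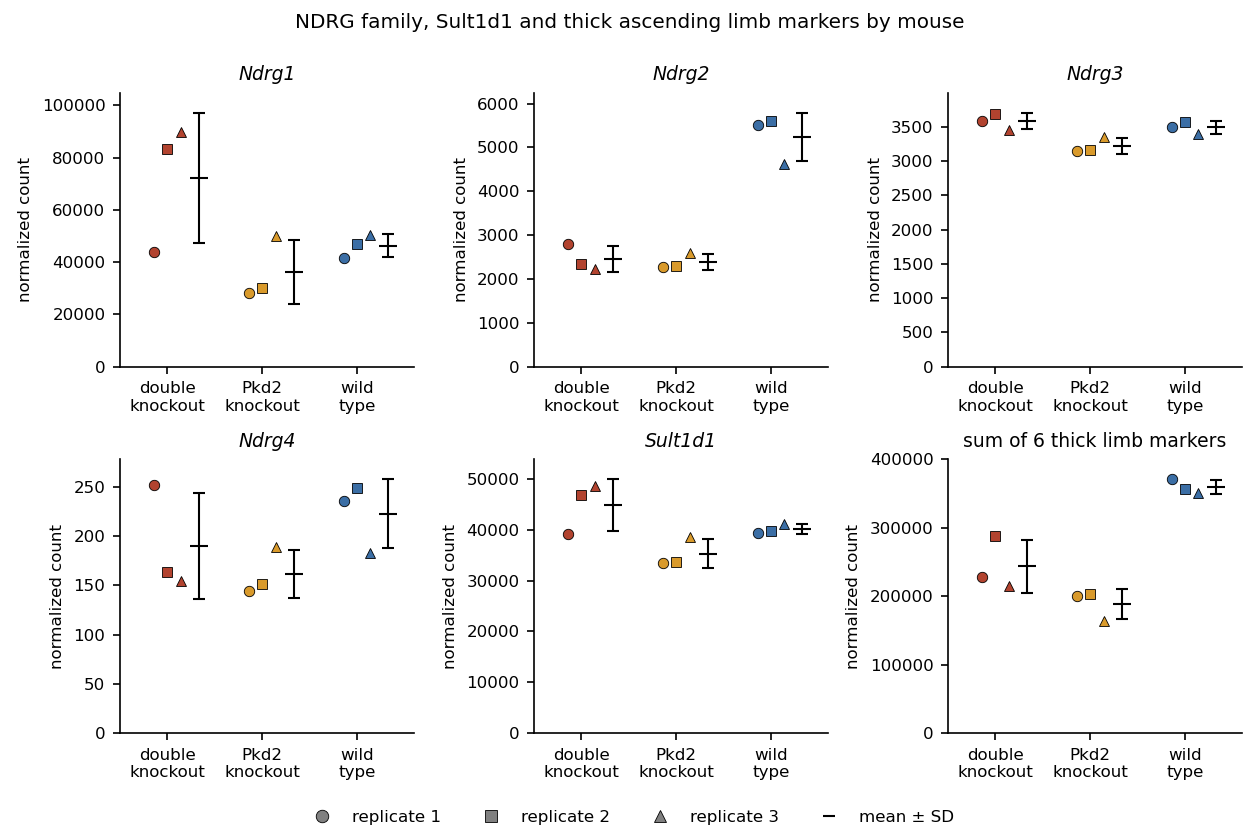
Normalized counts (vertical axis, from 0) of the 4 genes of the NDRG family, of Sult1d1 and of the sum of 6 thick ascending limb markers, 1 point per mouse with the mean ± SD beside it (n = 3 per group). Ndrg1 is highest in 2 of 3 double knockout mice and Ndrg2 is lower in all mutant mice than in any wild type mouse.

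Kdm3a encodes a histone H3 lysine demethylase that needs oxygen and that HIF induces. It had 1492, 1687 and 1676 normalized counts in DKO mice, 1274, 1345 and 1749 in KO mice and 1458, 1570 and 1546 in WT mice. KO 1 and KO 2 were the lowest mice and KO 3 was the highest of all 9, so the groups overlapped. The log2 fold change was -0.08 in KO over WT (-0.34 to 0.18, adjusted p = 0.766 by limma), 0.16 in DKO over KO (-0.10 to 0.43, adjusted p = 0.722) and 0.08 in DKO over WT (-0.18 to 0.35, adjusted p = 0.830). Its paralog Kdm3b averaged 2751 ± 167 in DKO, 2624 ± 73.6 in KO and 2586 ± 104 in WT kidneys and did not pass. Among the 15 other genes of the JmjC demethylase list, limma and edgeR called 0 in KO against WT (377 each of all 15740 tested genes). At an unadjusted p below 0.05, 3 were higher and 0 lower, beside 9.36% and 8.67% of all tested genes. Beside 1172 of all 15740 tested genes, DESeq2 called Jmjd1c and Kdm2a of this list. Kdm2a, the most abundant, averaged 4413 ± 148 in DKO, 4341 ± 20.1 in KO and 3824 ± 93.6 in WT kidneys, with log2 fold changes of 0.18 in KO over WT (adjusted p = 0.125) and 0.21 in DKO over WT (adjusted p = 0.204).

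KO 3 was the highest KO mouse for Egln1, Egln3, Vegfa, Ndrg1 and Kdm3a and the lowest for Hif1a, Epas1 and Adm. The part of its erythroid sum, or of its prefix, in these values was not tested. Over the 9 libraries the closest pairs among the 9 genes were Hif1a with Bnip3 (r = 0.907) and Ndrg1 with Kdm3a (r = 0.854). These are given as a description, since the libraries share genotype and scaling.

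The rest of the HIF pathway was described from lists of known members. Of the 13 other genes for HIF subunits and their regulators, limma, edgeR and DESeq2 each called 0 in KO against WT. Over all 15740 tested genes these methods called 377, 377 and 1172. At an unadjusted p below 0.05, 0 of the 13 genes passed, beside 18.0% of all tested genes. Their median log2 fold change was 0.05. The most abundant of them, the co-activator gene Ep300, averaged 4920 ± 645 in DKO, 4702 ± 506 in KO and 4365 ± 208 in WT kidneys. Among 22 HIF targets of glucose metabolism, 1 fell, 0 rose and 21 did not pass in KO against WT, with a median of -0.13 (limma called 2.40% of all tested genes). At an unadjusted p below 0.05, 3 were higher and 4 lower, beside 9.36% and 8.67% of all tested genes. Of these 22, edgeR called 2 and DESeq2 5, beside 377 and 1172 of all 15740 tested genes. The gene that fell was Hk1, a hexokinase gene (4608 ± 553 in DKO, 3904 ± 335 in KO and 5372 ± 200 in WT kidneys, SD, n = 3 each), with -0.46 ± 0.10 (SE) for log2 KO over WT and an adjusted p of 0.0454 by limma. That call was lost without any 1 of the KO or WT mice or without DKO 1, with adjusted p up to 0.146. Aldoa, the glycolytic aldolase and the most abundant gene of the list, averaged 26630 ± 793 in DKO, 22517 ± 768 in KO and 28665 ± 2451 in WT kidneys (-0.35 in KO over WT, adjusted p = 0.0529).

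Of 44 tested genes among 45 other HIF targets, 3 fell, 0 rose and 41 did not pass in KO against WT (limma called 2.40% of all tested genes). Their median log2 fold change was -0.01, with 21 above and 23 below 0. At an unadjusted p below 0.05, 5 were higher and 6 lower, beside 9.36% and 8.67% of all tested genes. Of these 44, edgeR called 3 and DESeq2 7, beside 377 and 1172 of all 15740 tested genes. Ddit4, an inhibitor of the growth regulator mTORC1, had 652, 2468 and 923 normalized counts in DKO mice, 525, 734 and 642 in KO mice and 3751, 5124 and 3130 in WT mice. Its log2 fold change of KO over WT was -2.64 (SE 0.42; limma adjusted p = 0.0172), and leaving out WT 1 (adjusted p = 0.0669), WT 2 (0.0788), KO 1 (0.0739) or KO 2 (0.0624) ended the call. Against WT, the DKO mice differed by -1.78 (adjusted p = 0.157), and by -2.34 with a call (adjusted p = 0.0116) without DKO 2, the highest mutant mouse.

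Tfrc, the transferrin receptor gene through which cells take up iron, had 5107, 5083 and 5296 normalized counts in DKO mice, 5624, 5338 and 4794 in KO mice and 8444, 7807 and 6587 in WT mice. All mutant mice lay below all WT mice. Its log2 fold change was -0.53 ± 0.10 in KO over WT (SE, adjusted p = 0.0297 by limma), a call that ended on leaving out WT 1 (adjusted p = 0.105), WT 2 (0.112), KO 1 (0.0700), KO 2 (0.0978) or KO 3 (0.0545), and -0.55 in DKO over WT (adjusted p = 0.0850), which was called without WT 3 (0.0230). Cxcl12, a chemokine gene, averaged 4483 ± 730 in DKO, 4377 ± 211 in KO and 6690 ± 301 in WT kidneys (SD, n = 3 each), with a log2 fold change of -0.61 ± 0.11 (SE) in KO over WT, at an adjusted p of 0.0260. The Cxcl12 call ended on leaving out WT 1 (adjusted p = 0.0860), WT 2 (0.0861), WT 3 (0.0633), KO 1 (0.0995) or KO 2 (0.0978), and DKO against WT (-0.59, adjusted p = 0.0968) was called without DKO 1 (0.0261). Car12, a carbonic anhydrase gene and the most abundant uncalled gene of the list, averaged 14973 ± 667 in DKO, 13697 ± 1020 in KO and 12927 ± 567 in WT kidneys.

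**Figure D4:**
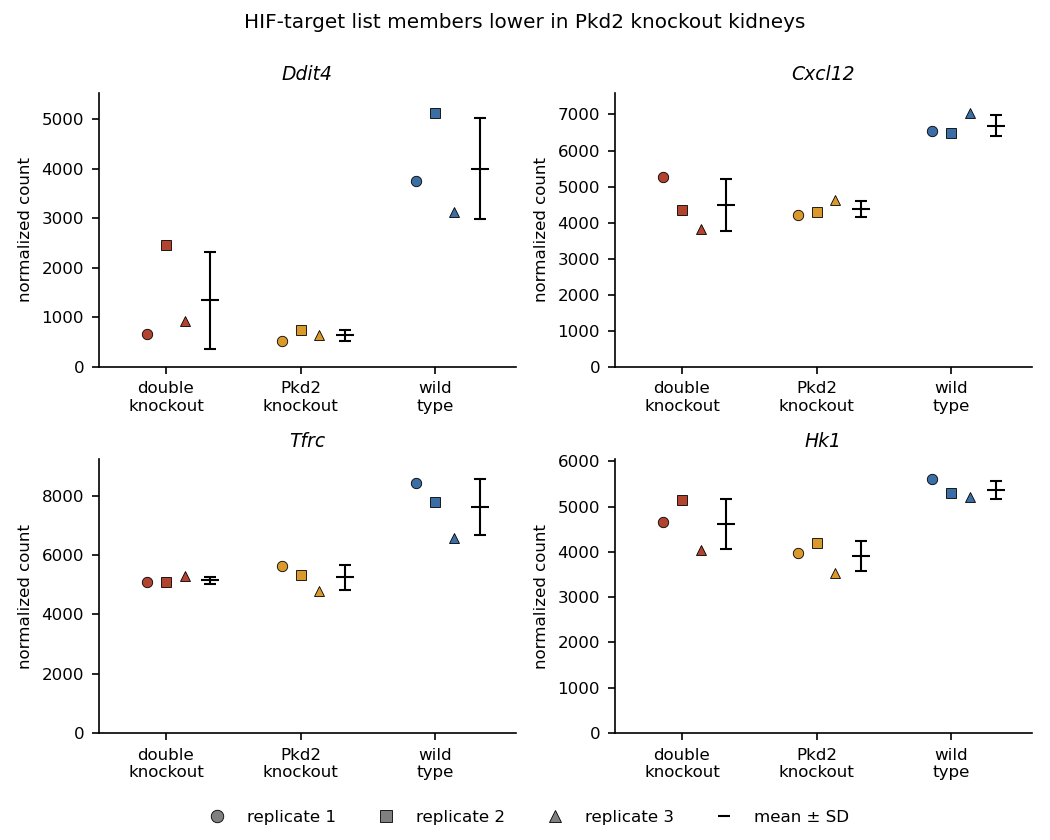
Normalized counts (vertical axis, from 0) of Ddit4, Cxcl12, Tfrc and Hk1, the listed HIF targets that passed in Pkd2 knockout against wild type, 1 point per mouse with the mean ± SD beside it (n = 3 per group). All Pkd2 knockout mice lie below all wild type mice for each gene.

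In DKO against KO, limma called 0 genes in any of the 8 lists, beside 62 of all 15740 tested genes. The medians of the lists without the 9 genes lay between -0.05 and 0.15. At an unadjusted p below 0.05, 4 of 22 glucose genes (3 higher, 1 lower) and 8 of 44 other targets (1 higher, 7 lower) differed, beside 10.7% of all tested genes (4.19% higher, 6.49% lower). By that rule 1 gene each did so in the mitophagy list (Gabarapl1, higher) and the NDRG list (Ndrg3, higher), and 0 did so in the remaining 4 lists. edgeR called 0 in all 8 lists (66 of all 15740 tested genes), and DESeq2 called Ccnd1 and Loxl2 besides Ndrg1 (472 of all tested genes). In DKO against WT, limma and edgeR called Ndrg2 and no other listed gene, beside 36 and 33 of all 15740 tested genes. DESeq2 also called Cxcl12, Loxl2, Tfrc, Jmjd1c and Kdm2a, beside 387 of all tested genes. At an unadjusted p below 0.05, 3 of 22 glucose genes, 9 of 44 other targets, 2 of 13 VEGF and angiopoietin genes, 3 of 13 mitophagy genes and 4 of 15 JmjC genes differed there, beside 11.7% of all tested genes (5.93% higher, 5.81% lower).

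**Figure D5:**
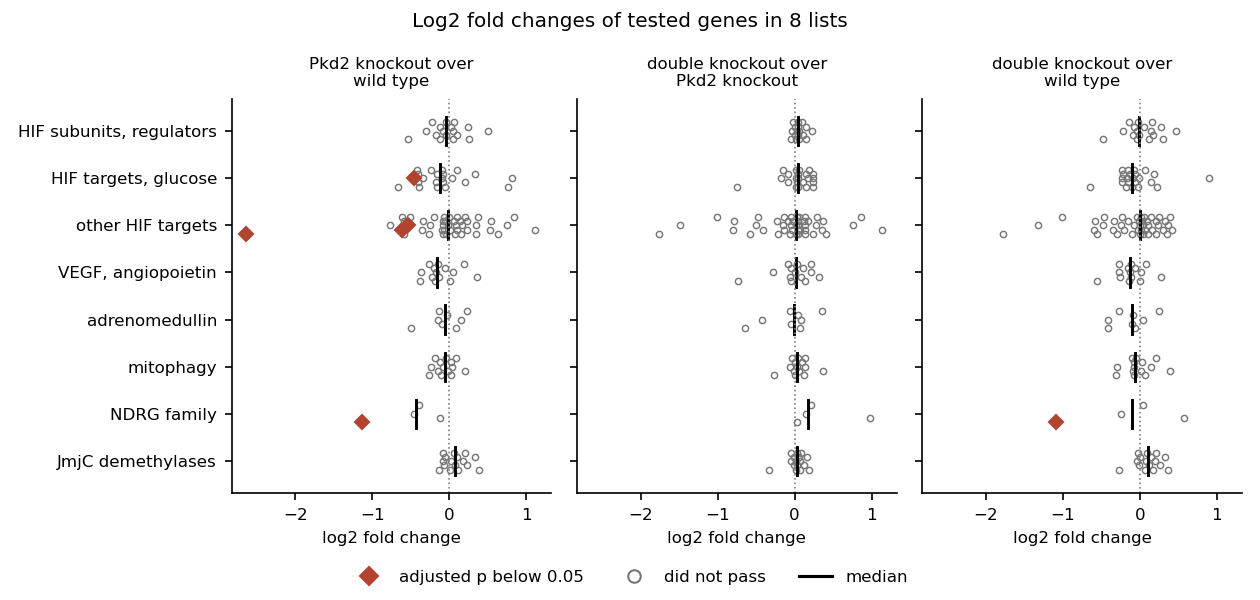
Log2 fold change (horizontal axis) of every tested gene in 8 lists, the 9 genes included, for the 3 comparisons. Filled diamonds passed limma's adjusted threshold, open circles did not and bars are list medians. The diamonds are Hk1, Ddit4, Cxcl12, Tfrc and Ndrg2 in Pkd2 knockout over wild type, none in double knockout over Pkd2 knockout, and Ndrg2 in double knockout over wild type.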

How the data were processed

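The values deposited by the authors are normalized counts for each gene, a signal. Per the submitters' processing notes, the tools used were STAR 2.5.0 (alignment), HTSeq 0.6.1 (counting) and DESeq2 (scaling). Build, annotation and strand setting: not given in the sources used here. Values were whole multiples of the value of 1 read (0.906 to 1.13 per library) for 100% of values at a tolerance of 0.05, and dividing by it gave the recovered reads. That value is close to 1 in KO 1 (0.99309) and WT 1 (1.00434), where 25.7% (KO 1) and 29.2% (WT 1) of nonzero values were whole undivided, so limma and the count tests were also run without these 2 libraries.

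limma 3.58.1 in R 4.3.3 compared the groups on log2(normalized count + 1), with an intensity trend and no block, over genes with a mean of at least 10, two-sided, with Benjamini-Hochberg adjustment. Fold changes on this scale understate low genes. The procedure was tested on simulated data. The series states that replicates are biological, and intervals assume independent mice. edgeR 4.0.16 and DESeq2 1.42.0 on recovered reads, pseudocounts of 0.1 and 10, no filter, a minimum mean of 50, TMM and quantile scaling, no trend, array quality weights, pairwise fits, a replicate block and left-out libraries were alternatives.

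The 9 genes, lists, markers and tests were chosen with earlier results of these data known. Named beside the 9 genes were up to 4 called genes of each list (otherwise its most abundant gene), paralogs, receptors, Pkd2, Ift88 and the 3 genes most like Ndrg1, which had the lowest p of the 9. Ndrg4, Epo, the genes DESeq2 called, Map1lc3a, Bcl2l13, and Aldoa and Car12 were added after their values were seen. The adipose, macrophage, fibroblast and adrenal markers are given in the closing section.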

Additional observations from a re-analysis of the deposited data

How the results depend on the processing

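Each of the 27 log2 fold changes (9 genes in 3 comparisons) was recomputed under 25 other settings. Of these 675 values, 648 kept their direction and side of the threshold, 0 lost a call, 5 gained a call and 22 reversed; the cause was not tested. Calls among the 9 genes were 3 with array quality weights in KO against WT (Egln3, Epas1 and Vegfa) and 1 in DKO against KO with array quality weights or with DESeq2 on all 9 libraries (Ndrg1), and 0 by limma, edgeR or DESeq2 on the 7 libraries other than KO 1 and WT 1. Of all 15740 tested genes, array quality weights called 3222 in KO against WT and 614 in DKO against KO, and DESeq2 called 472 in the latter. Over left-out libraries the 9 genes had 0 calls in each comparison.

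No reversed value was of a gene called in that comparison. In KO over WT, Adm was 0.018 with array quality weights and 0.038 excluding KO 3 and WT 3 together, and over left-out libraries it lay between -0.335 and 0.055 and Kdm3a between -0.219 and 0.009. In DKO over KO, Adm was -0.064 with array quality weights and -0.115 excluding KO 3 and WT 3 together, and over left-out libraries it lay between -0.153 and 0.310, Egln3 between -0.110 and 0.279, Hif1a between -0.019 and 0.090, Ndrg2 between -0.060 and 0.101, Tfrc between -0.086 and 0.029 and Cxcl12 between -0.100 and 0.131. In DKO over WT, left-out libraries gave -0.290 to 0.173 for Adm, -0.185 to 0.038 for Bnip3 and -0.263 to 0.055 for Epas1. On those 7 libraries limma, edgeR and DESeq2 gave -0.027, -0.06 and -0.06 for Egln3 and 0.029, 0.024 and 0.025 for Tfrc in DKO over KO, 0.055, 0.049 and 0.047 for Epas1 in DKO over WT, and limma gave -0.003 for Cxcl12 in DKO over KO. Among the listed genes called in KO against WT, limma's adjusted p was above 0.05, so that the call was lost, with no intensity trend for Cxcl12 (0.0546), Hk1 (0.0862) and Tfrc (0.0600), excluding KO 3 and WT 3 together for Cxcl12 (0.0580) and Hk1 (0.0865), with the replicate block for Cxcl12 (0.0620), with only these groups in the fit for Tfrc (0.0606) and with no filter for Hk1 (0.0535). On the 7 libraries limma and edgeR kept none of the calls of Cxcl12, Ddit4, Hk1, Ndrg2 and Tfrc, with adjusted p of 0.0737 to 0.362, and DESeq2 lost that of Hk1 (0.164).

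Counts of called genes depended more on the setting. In KO against WT, 377 genes became 3222 with array quality weights, 217 with the replicate block, 1172 with DESeq2, 13 by limma and 11 by edgeR on the 7 libraries, and 70 to 436 without 1 library. In DKO against KO, 62 became 31 with quantile scaling, 614 with weights, 26 with only these groups, 15 with the block, 308 excluding KO 3 and WT 3, 472 with DESeq2, 11, 10 and 149 by limma, edgeR and DESeq2 on the 7 libraries, and 8 to 154 without 1 library. In DKO against WT, 36 became 295 with weights, 20 with the block, 111 excluding KO 3 and WT 3, 387 with DESeq2, 11, 10 and 111 by limma, edgeR and DESeq2 on the 7 libraries, and 18 to 58 without 1 library. Same-numbered mice of different groups deviated together with r between -0.142 and 0.215, and differently numbered mice with r between -0.23 and 0.173. With 3 mice per group, these values cannot settle whether the numbers pair the mice. The replicate block called 0 of the 9 genes in each comparison. The fits to 7 libraries leave 2 mice each in KO and WT. Fold changes of single genes by edgeR and DESeq2, the fits to 7 libraries and all alternatives for the listed genes were added after seeing the data.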

Other observations

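Marker sums that enter no comparison above were as follows. The 7 macrophage markers summed to 4397 to 5026 in DKO, 5136 to 6541 in KO and 4336 to 4981 in WT kidneys. The 6 fibroblast and pericyte markers summed to 6006 to 6750 in DKO, 8343 to 11850 in KO and 7052 to 8060 in WT kidneys. The 4 adipose markers summed to 1568 to 2332 in DKO, 2414 to 5027 in KO, with the highest value in KO 3, and 1929 to 3047 in WT kidneys. Of the 4 adrenal markers 1 passed the filter on low values, and they summed to 109.2 to 130.2 in DKO, 113.2 to 163.8 in KO and 105.6 to 143.1 in WT kidneys.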
